A study of Mus musculus with 10 samples.

Results

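The response of back skin to an implanted but unfilled tissue expander was followed over 3 weeks on 4 whole-skin arrays of non-expanded mice, 1 each at days 0, 7, 14 and 21. These are the 4 of the 10 arrays of the series that carry the non-expanded label. In all 8 operated samples a silicone expander lay beneath the back skin. In the 4 non-expanded samples it received no PBS (phosphate-buffered saline), and in the 4 expanded samples, taken on the same days, PBS had gradually enlarged it. Skin from mice without surgery gave 1 array in telogen, when hair follicles rest, and 1 in anagen, when they grow hair. All mice were C57BL/6J, an inbred wild-type strain, and 9 weeks old at the start. The day counts from the full injection of the expander, an event that the non-expanded mice did not have, and the time since their implantation is not given in the sources used here. Each day is 1 array, the labels leave unsaid if that is 1 animal or several pooled, and the course over the days is therefore also a course over separate mice or pools.

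An implanted silicone body is known to draw neutrophils first and macrophages after them, to be walled off by fibroblasts that lay down collagen, and to keep a low inflammation at its surface. Skin cut for implantation also closes its epidermis, where keratinocytes near a wound switch to stress keratins and small cornified envelope proteins. Mouse back skin moreover carries a sheet of striated muscle, the panniculus carnosus, a layer of fat and a synchronised hair cycle, and all of these give RNA to a whole-skin sample.

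Values are log2 signals as deposited, and a difference of 1 is a doubling on that scale. Unless another group is named, 4 levels in a row belong to the non-expanded arrays of days 0, 7, 14 and 21. The deposited values reach 19.88, above the log2 limit of 16 that a 16-bit scanner would set, for 586 probe sets, so differences may be stretched. Of 19505 genes with a symbol, 13653 passed a filter on low mean levels and were tested. The median of these genes was 8.22, 8.38, 8.28 and 8.26, and the median of 23 background probe sets over all arrays was 5.46. All 8 keratinocyte markers and the 7 of 8 dermal fibroblast markers on the array were tested, and Krt10 (18.79, 18.36, 18.74 and 18.18) and Col1a1 (17.12, 19.06, 18.34 and 17.81) were high on every day, so the defining markers of whole skin were present. In bulk skin, fewer cells of a type and less RNA per cell cannot be told apart.

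A straight line over the 4 days passed the adjusted threshold for no gene, and single days stood out for 4 genes. The line was fitted with limma on 8 arrays, the expanded arm having a line of its own, and is given as the change over 21 days. The spread in this fit is the deviation from the lines, so a course that is not straight counts as spread. At a Benjamini-Hochberg adjusted p of 0.05 a line was called for 0 of 13653 genes (0%), with a lowest adjusted p of 0.437. At an unadjusted p under 0.05, 271 genes ran upward (1.98%) and 224 downward (1.64%). Each day was also set against the mean of the other 3 days, with the spread taken from those 3 arrays and from the 4 expanded arrays around their own mean. This called 1 gene at day 0 (0.00732%), 2 at day 7 (0.0146%), 0 at day 14 (0%) and 1 at day 21 (0.00732%). Without the expanded day 7 array, whose hair genes were high, day 14 had 13 calls. At an unadjusted p under 0.05 the numbers were 1051 genes (7.7%) for day 0, 1300 (9.52%) for day 7, 920 (6.74%) for day 14 and 649 (4.75%) for day 21. With 1 array a day, most results are given as levels of single arrays, with the fitted values beside them.

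The most frequent course was neither upward nor downward but alternating. Over the 4 non-expanded days 6314 genes (46.2% of those tested) spanned at least 1 log2 unit, against 4153 (30.4%) over the 4 expanded days. Of the 6314, 344 (5.45%) moved in 1 direction at each step, 193 of them upward and 151 downward. Steps that alternated made up 4319 (68.4%), with 2269 going up, down and up and 2050 going down, up and down. Among the 4153 genes of expanded skin, 1250 (30.1%) alternated and 329 (7.92%) kept 1 direction. Split into a linear, a quadratic and a cubic part, the sum of squares over days in non-expanded skin was 29.2%, 19.6% and 51.2%. The cubic part, which carries the alternation, was thus the largest in non-expanded skin, while in expanded skin the quadratic part was (24.5%, 44.3% and 31.2%). These shares are descriptions of 1 array a day and were not tested. Of 4 values in random order, more alternate than keep 1 direction. How far the shares lie from random order was not tested, and all genes share the same 4 arrays of an arm. Neither share is by itself a pattern in time.

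Single days also stood apart. At day 0, 206 genes (1.51%) lay at least 1 log2 unit above each other day and 269 (1.97%) below. At day 7 the numbers were 347 (2.54%) above and 130 (0.952%) below, so day 7 had the most genes above. At day 14, 189 (1.38%) lay above and 238 (1.74%) below, and at day 21, 187 (1.37%) above and 143 (1.05%) below. Days 0 and 14 thus had more genes below than above, and days 7 and 21 more above than below. Of all genes tested, 23.9%, 28.8%, 25.1% and 22.1% had their highest level on days 0, 7, 14 and 21, and 27.9%, 24.3%, 23.2% and 24.5% their lowest. Counts of list members highest or lowest on a day are to be read against these shares.

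**Figure D1:**
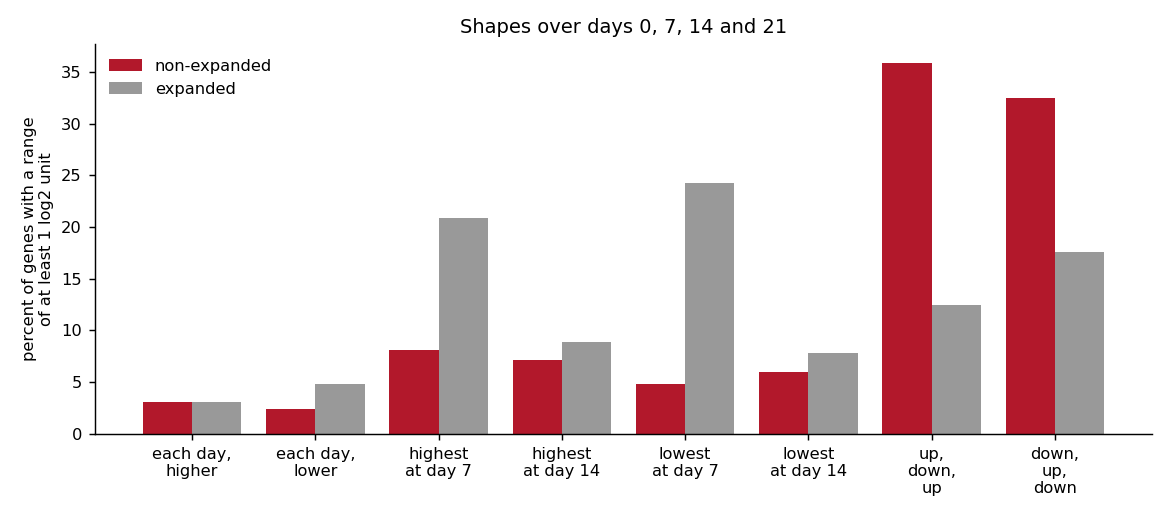
Course over days 0, 7, 14 and 21 of the genes that span at least 1 log2 unit within an arm, as a percentage of 6314 genes in non-expanded skin (red) and of 4153 in expanded skin (grey). Both alternating classes are the largest in non-expanded skin, at 35.9% and 32.5%, and the classes highest or lowest at day 7 are the largest in expanded skin, at 20.9% and 24.3%.

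The likeness of the arrays restates the alternation, since both are read from the same levels. Across the 13653 genes, the day 0 and day 14 arrays correlated at 0.963 and the day 7 and day 21 arrays at 0.973. The other pairs of non-expanded days lay between 0.941 and 0.950. Genes are not independent replicates, and these correlations carry no p. The day 14 array was also the most like telogen skin, with correlations to telogen of 0.934, 0.907, 0.964 and 0.933 on days 0, 7, 14 and 21. Correlations to anagen skin were 0.806, 0.804, 0.838 and 0.794. Whether the alternation follows days, single mice, the piece of skin taken or the handling of arrays cannot be told apart with 1 array a day.

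Ankrd1, an ankyrin repeat protein of striated muscle that is induced by stretch and injury and is a target of the YAP and TAZ coactivators, was the gene that set day 0 apart. Its level was 16.13, 8.56, 7.52 and 6.85. The day 0 level was thus near the top of the scale, and the 3 later levels lay close together and near skin without surgery, where Ankrd1 was at 6.91 in telogen and 7.68 in anagen. Day 0 was higher than the other 3 days by 8.49 ± 0.69 (SE, 1 array against 3), with an adjusted p of 0.0155 in limma. In expanded skin Ankrd1 stood at 16.17, 14.71, 15.47 and 15.38 on the same days, so both arms began alike, and from day 7 on the non-expanded levels alone lay near those without surgery. Without the day 21 array the adjusted p was 0.0513. Of the 20 other targets of YAP and TAZ tested, 0 were highest at day 0 and 12 were lowest then, against 23.9% and 27.9% of all genes. Axl, a receptor tyrosine kinase among these targets, was at 10.24, 13.15, 11.10 and 12.10.

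The window from 250 bases before to 50 bases after the Ankrd1 start is shown because Ankrd1 gave the largest difference called between days. It is from RefSeq on GRCm38.p6, at chr19:36119795-36120094 on the minus strand, and the gene itself spans 36111965 to 36119844 on chromosome 19. Capitals mark CATTCC, the core bound by TEAD factors, searched on both strands. Both matches read GGAATG, on the reverse strand, and begin 210 and 123 bases before the start. This core was found in 14.7% of 32851 promoter windows and in 8 of 16 matched YAP and TAZ targets.
Ankrd1: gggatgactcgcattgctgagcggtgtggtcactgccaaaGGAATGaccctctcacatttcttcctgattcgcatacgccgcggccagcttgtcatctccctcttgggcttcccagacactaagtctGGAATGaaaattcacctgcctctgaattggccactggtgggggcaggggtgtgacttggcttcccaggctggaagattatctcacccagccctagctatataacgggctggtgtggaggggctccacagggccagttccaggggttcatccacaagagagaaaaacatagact

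**Figure D2:**
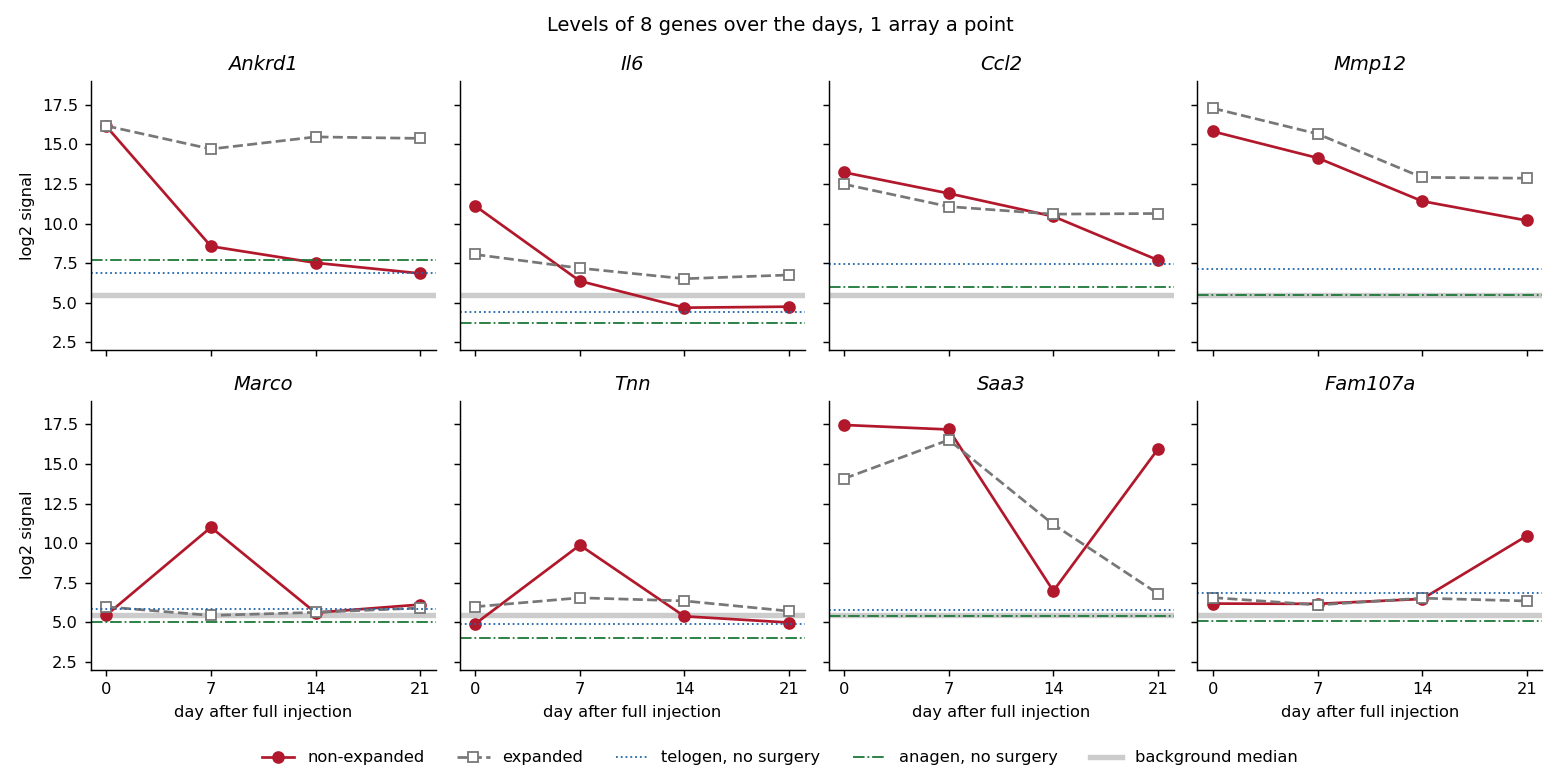
Log2 signal (y axis) of 8 genes against the day after full injection (x axis), with 1 array a point, non-expanded skin in red circles and expanded skin in grey squares. Lines across mark telogen and anagen skin without surgery and the background median of 5.46. In non-expanded skin Ankrd1 and Il6 are high at day 0 alone, Ccl2 and Mmp12 are lower at each later day, Marco and Tnn are high at day 7 alone, Saa3 is low at day 14 alone and Fam107a is high at day 21 alone.

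Several cytokines and chemokines of early inflammation, Il6, Ccl2, Ccl7 and Cxcl1 among them, were highest at day 0 and nearest to unoperated skin at days 14 or 21. Il6, the cytokine that drives the acute phase response, stood at 11.11, 6.37, 4.69 and 4.75, beside 4.42 in telogen and 3.69 in anagen. It was high at day 0 alone, and its last 2 levels lay under the background median. The day 0 difference was 5.84 ± 0.76 (SE, 1 array against 3; adjusted p = 0.148 in limma), so it did not pass. Ccl2, which draws monocytes, was at 13.23, 11.90, 10.45 and 7.69, and its neighbour Ccl7, of like action, at 11.80, 10.62, 9.24 and 8.79. Both were lower at each step. The line for Ccl2 did not pass, with -5.42 ± 0.64 over 21 days (SE, 4 arrays; adjusted p = 0.437). Cxcl1, an attractant of neutrophils, was at 8.98, 6.04, 5.27 and 5.39, high at day 0 alone. Cxcl5, of the same receptor class, peaked a week later, at 7.88, 11.53, 4.21 and 4.43. Cxcl13, which draws B cells, was at 13.12, 9.31, 10.00 and 15.25, with its highest level on the last day.

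As lists, 8 of 15 CC chemokines, 5 of 11 CXC chemokines and 10 of 16 genes of interleukin 1 and 6 signalling had their highest level at day 0, against 23.9% of all genes. Not 1 of them passed the adjusted threshold. The day 0 level was higher at an unadjusted p under 0.05 for 3, 1 and 3 members of these lists, against 3.01% of all genes. Their median differences of day 0 from the other days were 0.48, 1.03 and 0.84, beside -0.04 over all genes. The CXC chemokines were split between days 0 and 7, since 4 of the 11 were highest at day 7, against 28.8% of all genes. Their list mean was 9.95 at day 0 and 9.78 at day 7. Il1a, an alarm cytokine of keratinocytes, was at 10.96, 6.98, 9.77 and 8.35, and Il1f6 (interleukin 36 alpha) at 11.19, 7.09, 8.77 and 8.09. Both had their 2 higher levels at days 0 and 14.

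The promoter windows of Il6 and Cxcl1 are shown because both were high at day 0 alone. They are from RefSeq on GRCm38.p6, at chr5:30012864-30013163 and chr5:90890995-90891294, both on the plus strand. Capitals mark an NF-kappa-B type motif, searched on both strands as GGG, any 2 bases and TTTCC. It begins 44 bases before the start in Il6, and 89 (read in reverse) and 71 bases before it in Cxcl1. The motif was found in 1.63% of all 32851 windows and in 3 of 10 matched CXC chemokines.
Il6: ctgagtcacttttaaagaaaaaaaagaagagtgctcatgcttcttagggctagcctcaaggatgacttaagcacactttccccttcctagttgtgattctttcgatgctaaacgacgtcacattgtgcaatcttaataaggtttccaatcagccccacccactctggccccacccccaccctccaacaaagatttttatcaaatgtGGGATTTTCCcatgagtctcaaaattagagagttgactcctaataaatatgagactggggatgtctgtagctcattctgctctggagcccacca
Cxcl1: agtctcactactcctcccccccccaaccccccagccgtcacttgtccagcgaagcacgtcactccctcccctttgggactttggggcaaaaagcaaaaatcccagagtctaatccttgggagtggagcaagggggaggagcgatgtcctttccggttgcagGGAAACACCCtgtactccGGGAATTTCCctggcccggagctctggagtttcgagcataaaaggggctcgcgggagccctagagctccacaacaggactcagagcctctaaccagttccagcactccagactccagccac

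The mean of 11 neutrophil genes was highest at day 0 and lowest at day 14, at 9.75, 8.53, 6.87 and 8.19. Retnlg, a resistin-like protein of neutrophils, was at 12.90, 9.11, 8.30 and 7.21, lower at each step and lowest at day 21. S100a8 and S100a9, the subunits of calprotectin, were at 14.49, 10.55, 7.73 and 9.64 and at 15.20, 11.75, 8.81 and 10.78. Lcn2, an iron-scavenging lipocalin, was at 14.48, 8.75, 7.58 and 12.92. The last 3 were higher at day 21 than at day 14. Of the 11, 6 were highest at day 0 and 8 lowest at day 14, against 23.9% and 23.2% of all genes. At an unadjusted p under 0.05, 1 was higher at day 0 and 0 were lower at day 14, against 3.01% and 3.48% of all genes. Keratinocytes near wounds also make S100a8 and S100a9, and both stand in the wound epidermis list too.

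Saa3, an acute phase protein made locally by macrophages and epithelia, had the deepest trough of any gene named at day 14, at 17.46, 17.17, 6.98 and 15.93. Days 0, 7 and 21 were all near the top of the scale and day 14 was near the 5.75 in telogen and 5.41 in anagen of skin without surgery. In expanded skin Saa3 was at 14.07, 16.52, 11.18 and 6.81 on days 0, 7, 14 and 21. The day 14 difference of -9.88 ± 2.93 (SE, 1 array against 3; adjusted p = 0.738 in limma) did not pass, and in a fit of the 4 non-expanded arrays alone its adjusted p was 0.0215. Tlr13, a receptor for bacterial RNA, was at 9.33, 10.45, 5.63 and 9.69, and the C-type lectins Clec4d, Clec4e and Clec4n of myeloid cells were at 10.54, 12.65, 7.42 and 10.42, at 9.54, 13.00, 6.77 and 9.80 and at 10.75, 12.58, 8.39 and 10.90. All 4 had their peak at day 7 and their trough at day 14. Prg4, the lubricating proteoglycan of joint and fascia surfaces, was at 15.05, 11.78, 8.62 and 15.31, high on days 0 and 21.

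Macrophage genes peaked at day 7, and the scavenger receptor Marco was called there. Marco, which binds bacteria and particles, was at 5.46, 10.999, 5.61 and 6.12. Day 7 alone was high, the other 3 days lay near the background median, and in the expanded, telogen and anagen arrays Marco lay between 5.005 and 5.974. The day 7 difference was 5.27 ± 0.38 (SE, 1 array against 3; adjusted p = 0.00589 in limma), and in a fit of the 4 non-expanded arrays alone the adjusted p was 0.19. The gene lies on chromosome 1, from 120474538 to 120505024 on mm10. Of 16 macrophage genes tested, 11 were highest at day 7 and 15 lowest at day 14, against 28.8% and 23.2% of all genes. C1qb, a chain of the first complement component made by macrophages, was at 10.75, 13.72, 9.23 and 12.79, and Trem2, a lipid receptor of tissue macrophages, at 7.60, 10.08, 6.51 and 7.27. Cd163, the haemoglobin scavenger receptor, differed in being highest at day 21, at 13.70, 13.38, 11.36 and 14.78.

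The macrophage list did not come down to unoperated skin over the 3 weeks. Its mean level was 11.98, 13.26, 10.82 and 12.75, beside 9.34 in telogen and 8.59 in anagen skin. On days 0, 7, 14 and 21 the number of its 16 genes above both unoperated arrays was 15, 15, 14 and 15, against 29.7%, 30.8%, 30.7% and 29.3% of all genes. Complement genes moved in the same way, with 10 of 14 highest at day 7 and 11 lowest at day 14, against 28.8% and 23.2% of all genes. Their mean was 11.66, 13.10, 11.10 and 13.03. C1qa, C1qb and C1qc stand in both lists, so the lists are not independent. Day 7 was higher at an unadjusted p under 0.05 for 4 macrophage and 2 complement genes, against 6.19% of all genes, and day 14 was lower for 6 and 2, against 3.48%. Genes of alternatively activated macrophages spread over the days. Retnla, a resistin-like protein of such cells, was highest at day 14, at 12.99, 12.20, 14.56 and 12.72, and the chitinase-like Chil3 at day 0, at 8.51, 5.03, 4.44 and 6.05. List means of lymphocyte and mast cell genes differed by less than 1 log2 unit between days. The mean of 8 T and NK cell genes was 6.94, 6.25, 6.82 and 6.53 and that of 10 mast cell genes 7.97, 7.95, 7.66 and 8.20, and of 6 B and plasma cell genes on the array 0 passed the filter on low levels. Of the red blood cell list 2 genes passed, with a mean of 6.92, 7.30, 6.72 and 7.13.

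As a list, genes of the antiviral interferon response were lowest at day 14. Their mean over 19 genes was 8.74, 8.57, 7.32 and 8.74, beside 7.20 in telogen and 6.68 in anagen skin. Day 14 was the lowest for 17 of the 19, against 23.2% of all genes, and the means of the other 3 days lay close together. At an unadjusted p under 0.05 day 14 was lower for 11 of 19, against 3.48% of all genes, and the median difference was -1.61 beside 0.02 over all genes. In expanded skin the list mean was also lowest at day 14, at 7.595, 7.744, 6.801 and 7.023 on days 0, 7, 14 and 21. Irf7, the transcription factor that amplifies type I interferon, was at 7.36, 8.85, 5.39 and 8.35, and Isg15, a ubiquitin-like modifier, at 7.74, 5.52, 4.85 and 6.15. At day 14 both lay under the background median, and Isg15 was near it at day 7 too. The day 14 difference of Irf7 was -2.79 ± 0.97 (SE, 1 array against 3; adjusted p = 0.738 in limma).

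Genes induced by interferon gamma and genes of MHC class II, which present antigen to T cells, had their highest levels at day 21. Day 21 was the highest for 10 of 14 members, against 22.1% of all genes. The list mean was 10.98, 11.62, 10.70 and 12.36, beside 10.36 in telogen and 8.61 in anagen skin. Tgtp2, an interferon-induced GTPase, was at 8.91, 9.61, 6.90 and 12.76, and Iigp1, a GTPase that attacks parasite vacuoles, at 10.11, 9.82, 7.55 and 12.78. The guanylate-binding proteins Gbp2 and Gbp3 were at 8.40, 10.29, 7.91 and 11.94 and at 8.89, 10.12, 7.83 and 11.31, and the MHC class II chain H2-Ab1 at 11.40, 13.72, 12.66 and 14.10. All 5 had their highest level at day 21, and the 4 GTPases were at their lowest at day 14. None passed: the day 21 difference was 4.29 ± 1.22 for Tgtp2 and 3.08 ± 0.92 for Gbp2 (SE, 1 array against 3; adjusted p = 0.897 for each in limma). Of the 14, 6 were higher at day 21 at an unadjusted p under 0.05, against 2.35% of all genes. In expanded skin the list mean on days 0, 7, 14 and 21 was 11.43, 11.36, 10.39 and 10.63.

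The promoter windows of Tgtp2 and Gbp2 are shown because these genes were among the highest at day 21. They are from RefSeq on GRCm38.p6, at chr11:49064163-49064462 on the minus strand and at chr3:142620413-142620712 on the plus strand. Capitals mark an interferon-stimulated response element type motif, searched on both strands as GAAA, any 2 bases and GAAA, and in Tgtp2 also a STAT site motif, TTC, any 3 bases and GAA. The motifs do not overlap in Tgtp2. The response element begins 70 bases before the start in Tgtp2 and 59 bases (read in reverse) in Gbp2, and the STAT motif 81 bases before the start. The response element was found in 3.44% of all 32851 windows, in 4 of 11 matched interferon gamma and MHC genes and in 11 of 17 matched genes of the antiviral response. The STAT motif was found in 8.3% of all windows and in 1 of these 11 genes.
Tgtp2: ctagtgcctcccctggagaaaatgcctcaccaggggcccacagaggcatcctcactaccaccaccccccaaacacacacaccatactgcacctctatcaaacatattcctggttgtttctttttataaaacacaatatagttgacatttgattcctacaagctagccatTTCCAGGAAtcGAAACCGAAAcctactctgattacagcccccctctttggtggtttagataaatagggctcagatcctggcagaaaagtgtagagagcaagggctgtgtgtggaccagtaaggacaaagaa
Gbp2: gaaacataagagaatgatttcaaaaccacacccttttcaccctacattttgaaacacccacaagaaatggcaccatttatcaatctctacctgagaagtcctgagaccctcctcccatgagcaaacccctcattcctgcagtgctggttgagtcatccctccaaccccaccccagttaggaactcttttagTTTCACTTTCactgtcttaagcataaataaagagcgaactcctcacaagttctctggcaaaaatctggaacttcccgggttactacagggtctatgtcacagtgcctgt

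Keratinocyte genes of wounded epidermis were highest at day 0, and their mean was high at day 0 alone. All 15 members tested had their highest level at day 0, against 23.9% of all genes. At least 1 log2 unit above each other day were 10 of the 15, against 1.51% of all genes. Other members moved little, with a range of 0.709 for Hbegf and 0.83 for Gjb6. The list mean was 10.91, 7.38, 7.45 and 7.31, beside 6.66 in telogen and 8.91 in anagen skin. Krt16, a stress keratin of proliferating epidermis, was at 12.96, 6.62, 6.78 and 5.99, and the small proline-rich proteins Sprr2d and Sprr2e were at 11.96, 5.54, 5.19 and 5.32 and at 11.44, 5.92, 4.29 and 5.54. The cystatin-like protease inhibitors Cstdc5, Cstdc6, Csta3 and Stfa3 went the same way, with 14.84, 4.94, 6.21 and 4.88 for Cstdc5 and 14.28, 7.47, 7.51 and 6.71 for Stfa3. They are near-identical copies in a cluster, as are the Sprr2 genes, so levels of single copies are uncertain. Days 7, 14 and 21 lay close together, far under day 0, for each of these genes. The day 0 difference was 6.50 ± 2.24 for Krt16 and 9.49 ± 2.35 for Cstdc5 (SE, 1 array against 3; adjusted p = 0.641 for each in limma). In expanded skin Krt16 was at 10.39, 16.16, 13.84 and 9.13 on days 0, 7, 14 and 21, and this large spread enters the fit. Fitted on the 4 non-expanded arrays alone, 12 genes passed at day 0, with an adjusted p of 0.0187 for Krt16. In the fit of 8 arrays 7 of 15 were higher at day 0 at an unadjusted p under 0.05, against 3.01% of all genes.

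Barrier and differentiation genes alternated, with higher levels at days 0 and 14. Of 25 genes of epidermal differentiation, 16 were highest at day 0 and 8 at day 14, against 23.9% and 25.1% of all genes, and 15 were lowest at day 21 and 10 at day 7, against 24.5% and 24.3%. Higher at an unadjusted p under 0.05 were 5 of 25 at day 0 and 2 at day 14, against 3.01% and 3.26% of all genes. Krt1, a keratin of the layers above the basal one, was at 18.42, 16.55, 17.44 and 15.82. Ivl, the envelope protein involucrin, was at 14.29, 10.95, 13.35 and 11.16, and Hrnr, a filaggrin-like protein, at 17.82, 14.68, 16.38 and 14.98. The basal keratin Krt14 was at 16.60, 15.42, 16.09 and 14.43, lowest at day 21. Keratinocyte markers fixed for the tissue check alternated too, with a mean of 16.003, 15.21, 16.11 and 14.93 over 8 genes. Krt1, Krt10, Dsg1a, Lor and Flg2 stand in both lists, so the lists are not independent. The share of epidermis in the piece taken was not tested.

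**Figure D3:**
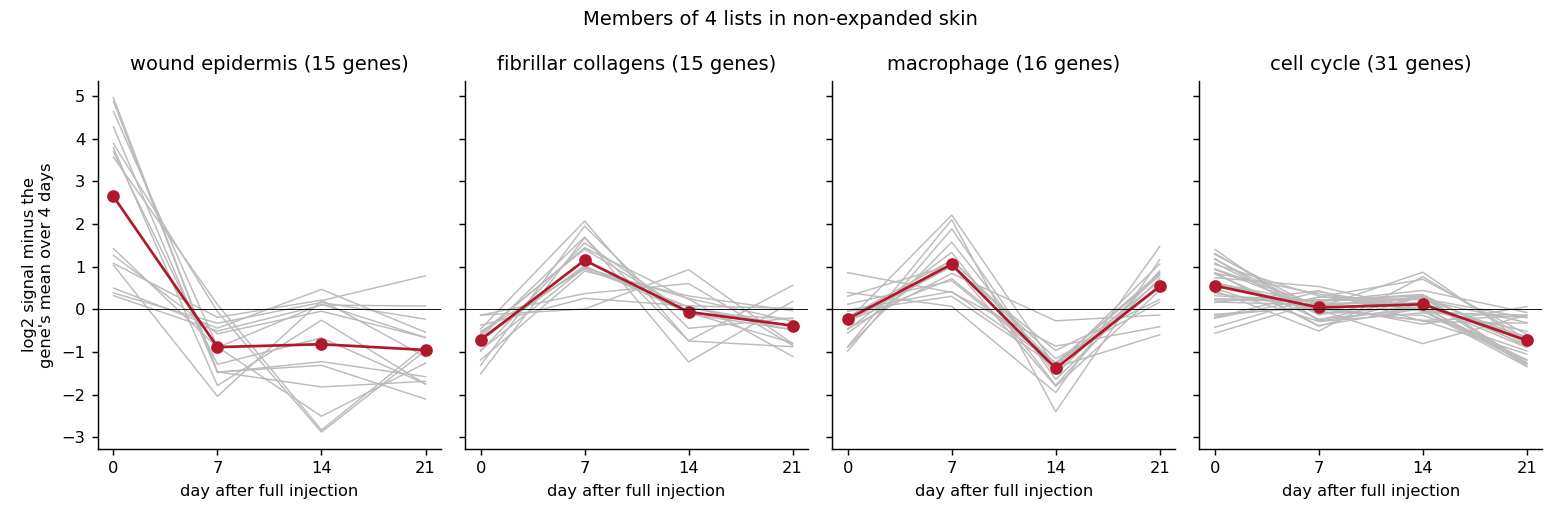
Members of 4 gene lists in non-expanded skin (grey lines, 1 a gene) and their mean (red), as log2 signal minus the gene's own mean over the 4 days, against the day after full injection. The mean of wound epidermis is high at day 0 alone, and those of fibrillar collagens and macrophage genes are high at day 7. Macrophage genes have a trough at day 14, and cell cycle genes are lowest at day 21.

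Proliferation genes were highest at day 0 and lowest at day 21. Of 31 cell cycle genes, 20 were highest at day 0 and 25 lowest at day 21, against 23.9% and 24.5% of all genes. Their mean was 8.46, 7.95, 8.03 and 7.18, beside 7.11 in telogen and 10.04 in anagen skin. Mki67, which marks cycling cells, was at 12.33, 11.87, 11.83 and 10.82, and Ccna2, cyclin A2, at 9.81, 8.37, 8.92 and 7.37. Plk1, a mitotic kinase, was at 8.72, 7.98, 7.62 and 6.32, and Tpx2, a spindle assembly factor, at 8.56, 7.14, 7.31 and 5.96. The level at day 21 was the lowest for each of these 4. Replication-dependent histones, whose messages rise in S phase, shared the low point at day 21, with 13.16, 11.14, 12.40 and 9.12 for H4c6 and 14.00, 12.55, 13.29 and 10.29 for H2ac15; their copies are near-identical and single values are uncertain. The lines ran downward for 8 of 31 cell cycle genes at an unadjusted p under 0.05, against 1.64% of all genes, and the median line was -1.18 over 21 days, beside 0.00 over all genes. Gsdmc, a gasdermin, stood the furthest below its other days at day 21 among the genes tested, at 12.10, 7.36, 7.14 and 4.38.

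Connective tissue genes peaked at day 7, and the matrix protein Tnn was called there. Tnn, tenascin N (also called tenascin W), a protein of growing and healing connective tissue, was at 4.91, 9.87, 5.38 and 4.98. Only day 7 lay above the background median. The difference was 4.78 ± 0.40 (SE, 1 array against 3; adjusted p = 0.0106 in limma), and the adjusted p was 0.0558 without the day 0 array and 0.19 in the 4 non-expanded arrays alone. The gene lies on chromosome 1, from 160085029 to 160153692 on mm10. Mest, an imprinted gene of growing mesoderm, was at 5.70, 11.90, 6.36 and 6.51, and Sfrp2, a secreted Wnt modulator of fibroblasts, at 11.38, 16.64, 12.91 and 12.66. Cemip, which degrades hyaluronan, was at 4.16, 7.98, 4.62 and 4.17, and the proteoglycan-cleaving protease Adamts15 at 5.600, 8.73, 5.10 and 5.37. Each of these 4 stood at least 3 units above its other days at day 7 and none passed the adjusted threshold: for Mest the difference was 5.71 ± 0.93 and for Sfrp2 4.32 ± 1.00 (SE, 1 array against 3; adjusted p = 0.41 and 0.421 in limma).

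Structural collagens moved together. Of 15 fibrillar collagens and partners, 13 were highest at day 7 and 9 lowest at day 0, against 28.8% and 27.9% of all genes. Day 7 was higher for 10 of the 15 at an unadjusted p under 0.05, against 6.19% of all genes, and the median difference was 1.37 beside 0.02. Col3a1, the collagen of early repair tissue, was at 17.38, 19.12, 18.01 and 17.88, and Col5a1, which starts fibril assembly, at 8.05, 11.31, 8.92 and 9.16. Fn1, fibronectin, on which new fibrils are laid, was at 15.21, 18.41, 15.99 and 17.29. By day 21 the list mean was 12.02, beside 11.45 in telogen and 10.97 in anagen skin. Enzymes that mature collagen went the same way, with 11 of 14 highest at day 7, against 28.8% of all genes. Loxl1, which cross-links elastin and collagen, was at 10.29, 13.09, 10.98 and 11.43, P4ha3, a prolyl hydroxylase subunit, at 5.88, 10.20, 6.60 and 9.12, and Pcolce, which speeds the cleavage of procollagen, at 10.01, 13.22, 11.15 and 11.70.

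Matricellular proteins, which signal between cells and matrix, were highest at day 7 in 10 of 13, against 28.8% of all genes. Tnc, tenascin C of wound edges, was at 10.85, 11.46, 6.23 and 6.26. Thbs4, a thrombospondin of tendon and repair tissue, was at 11.53, 13.11, 9.22 and 8.97, and Ccn3, a growth regulator of the CCN family, at 12.34, 16.01, 13.90 and 12.72. Thbs1, which activates latent transforming growth factor beta, was lower at each step instead, at 12.36, 11.88, 10.46 and 10.10. On days 0, 7, 14 and 21, 12, 13, 12 and 12 of the 13 lay above both arrays without surgery, against 29.7%, 30.8%, 30.7% and 29.3% of all genes. The list mean was 11.03, 12.40, 10.34 and 10.19, beside 8.47 in telogen and 8.27 in anagen skin. Elastic fibre genes were highest at day 7 in 12 of 14, against 28.8% of all genes. Eln, elastin, was at 9.76, 11.69, 10.93 and 9.42 and Fbln2, fibulin 2, at 7.90, 11.51, 7.89 and 9.28. Of 10 leucine-rich proteoglycans, 6 were highest at day 7 and 3 at day 14, against 28.8% and 25.1% of all genes. Fmod, fibromodulin, was at 6.98, 9.32, 8.20 and 6.52 and Omd, osteomodulin, at 11.17, 10.00, 13.08 and 10.32.

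The matrix-degrading enzymes split by day. Mmp12, macrophage elastase, was at 15.81, 14.14, 11.41 and 10.19, lower at each step and at day 21 still above the 7.10 in telogen and 5.48 in anagen of skin without surgery. Its line was -5.88 ± 0.74 over 21 days (SE, 4 arrays; adjusted p = 0.437 in limma). Mmp9, a gelatinase of neutrophils and keratinocytes, was at 8.500, 7.10, 6.22 and 4.92, and Atp6v0d2, a proton pump subunit of osteoclasts and other fused macrophages, at 9.68, 9.46, 6.73 and 4.76. Both were lower at each step. Mmp13, a collagenase, peaked at day 7, at 9.50, 11.66, 5.66 and 5.14. Of 15 metalloproteinases, 5 were highest at day 0 and 10 at day 7, against 23.9% and 28.8% of all genes. Timp1, their secreted inhibitor, was at 11.99, 12.81, 7.02 and 10.08, with a trough at day 14, and Timp3, which binds the matrix, at 6.57, 11.80, 8.81 and 9.63. Of 5 inhibitors tested, 4 were highest at day 7, against 28.8% of all genes.

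Vessels, growth factors and metabolism followed the matrix in part. Of 14 endothelial genes, 11 were highest at day 7 and 10 lowest at day 0, against 28.8% and 27.9% of all genes. Eng, endoglin of growing vessels, was at 9.95, 13.02, 9.49 and 12.44 and Plvap, of fenestrated vessels, at 6.79, 9.77, 7.78 and 8.53. Selp, the selectin of activated endothelium, was highest at day 0, at 10.38, 8.31, 8.57 and 9.39. Genes of hypoxia and glycolysis were highest at day 7 in 11 of 18, against 28.8% of all genes. Ldha, lactate dehydrogenase, was at 13.63, 15.75, 14.27 and 15.74. The insulin-like growth factor genes were highest at day 7 in 6 of 10, against the same 28.8%, with Igf2 at 7.88, 10.85, 7.55 and 8.61. The list of transforming growth factor beta signalling moved less, with a median range of 0.81 beside 0.95 over all genes, and Tgfbr2, its signalling receptor, was at 13.64, 15.40, 13.47 and 14.81. Contractile genes of smooth muscle and myofibroblasts had 3 of 11 at their highest at day 7, 4 at day 14 and 3 at day 21. The shares of all genes were 28.8%, 25.1% and 22.1%, so no single day stood out for this list. Cnn1, calponin, was at 8.02, 6.34, 7.62 and 7.53. The mean of 7 lymphatic genes was 9.45, 9.07, 8.99 and 9.55 and that of 6 Schwann cell genes 8.55, 8.74, 9.09 and 9.14.

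**Figure D4:**
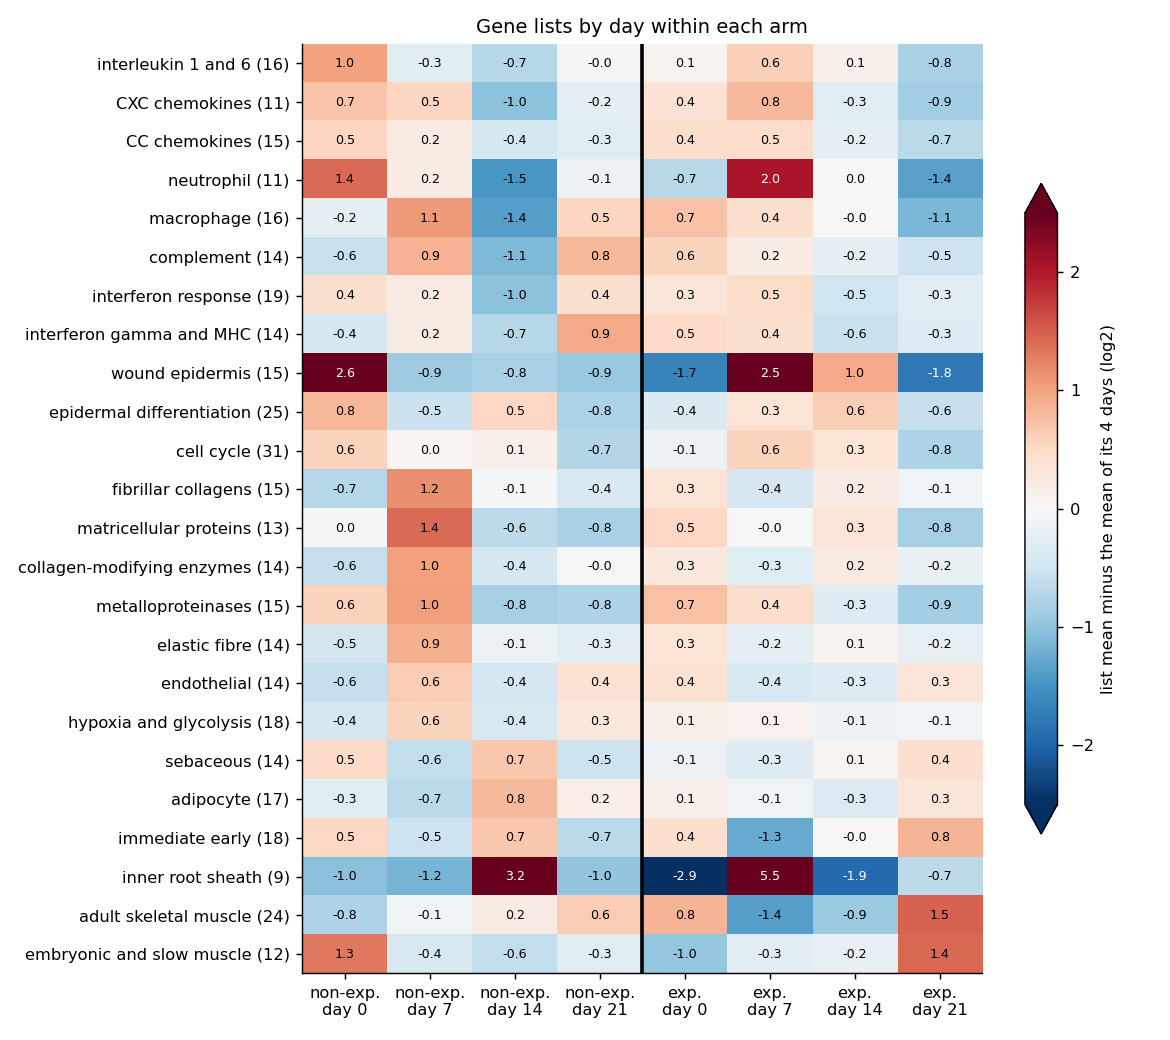
Mean log2 signal of 24 gene lists minus the mean of its 4 days within an arm, for the 4 non-expanded arrays (left of the line) and the 4 expanded arrays (right of it), with the number of genes tested in parentheses. Red is above and blue below the mean of the 4 days; inner root sheath and wound epidermis exceed the colour scale. In non-expanded skin inflammation and wound epidermis are high at day 0 and matrix and macrophage lists at day 7. Hair and fat lists are high at day 14, the sebaceous list at days 0 and 14, and interferon gamma and adult muscle lists at day 21.

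Genes of adult skeletal muscle were lowest at day 0 and highest at day 21. Of 24, 14 were lowest at day 0 and 17 highest at day 21, against 27.9% and 22.1% of all genes, with a mean of 13.82, 14.51, 14.80 and 15.22, beside 15.49 in telogen and 11.84 in anagen skin. Smco1, a membrane protein of muscle, was at 3.39, 7.13, 7.20 and 7.99, and Klhl38, a Kelch-like protein, at 5.18, 9.36, 8.73 and 11.89. The day 0 level was the lowest of each. Mstn, myostatin, which limits muscle growth, was at 8.58, 10.53, 12.56 and 11.999, beside 13.89 in telogen and 8.98 in anagen. Pfkm, the muscle phosphofructokinase, was at 9.45, 14.19, 12.58 and 13.99, Pygm, the muscle glycogen phosphorylase, at 13.11, 16.72, 16.16 and 17.28, and Atp2a1, the calcium pump of fast fibres, at 13.78, 17.78, 16.18 and 17.89. The most abundant contractile gene, Acta1 (skeletal actin), spanned less than 1 unit, at 18.46, 19.04, 18.29 and 19.16. Day 0 was lower for Smco1 by -4.05 ± 0.51 (SE, 1 array against 3; adjusted p = 0.148 in limma). At an unadjusted p under 0.05 day 0 was lower for 4 of 24, against 4.69% of all genes. Day 21 was higher for 0 of 24 at that threshold, against 2.35% of all genes. The amount of panniculus carnosus in each piece of skin was not tested.

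Embryonic and slow muscle isoforms and stress genes of muscle had the opposite course, with 8 of 12 highest at day 0, against 23.9% of all genes. The list mean was 9.83, 8.11, 7.90 and 8.21, and it includes Ankrd1. Without Ankrd1 the mean of the other 11 genes was 9.26, 8.07, 7.94 and 8.33, with 7 highest at day 0. Myh3, the embryonic myosin heavy chain of regenerating fibres, was at 7.72, 5.09, 5.15 and 5.69, with days 7 and 14 under the background median. Csrp3, a stretch-responsive protein of the sarcomere, was at 15.71, 12.57, 11.63 and 13.38, and Mybph, a myosin-binding protein, at 10.38, 6.96, 6.44 and 6.05. Myf6, a myogenic transcription factor, was at 10.22, 8.16, 8.11 and 8.77, and Mymk, needed for myoblast fusion, at 6.83, 5.20, 4.99 and 4.55. Of 7 myogenic regulators tested, 3 were highest at day 0, 3 at day 21 and 6 lowest at day 14, against 23.9%, 22.1% and 23.2% of all genes. Fuel-handling genes stood out on the last day. Pdk4, which blocks pyruvate oxidation in fasting, was at 8.96, 10.17, 9.97 and 13.31, Ucp3, a mitochondrial carrier of muscle, at 5.66, 6.38, 7.23 and 9.50, and Ppp1r3c, a glycogen-targeting subunit, at 7.59, 10.39, 9.19 and 12.68. Of 21 genes of mitochondrial respiration, 10 were highest at day 21 and 11 lowest at day 0, against 22.1% and 27.9% of all genes. Cox7a1, the muscle isoform of a cytochrome oxidase subunit, was at 8.89, 10.59, 11.59 and 11.99.

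Fam107a, an actin-associated stress protein that glucocorticoids induce, was the gene called at day 21. Its level was 6.18, 6.16, 6.47 and 10.46. The first 3 levels lay close together, and the expanded arrays (6.56, 6.10, 6.52 and 6.34) and those without surgery (6.83 in telogen and 5.09 in anagen) had like levels. The day 21 difference was 4.18 ± 0.33 (SE, 1 array against 3; adjusted p = 0.0131 in limma). It is the least stable of the calls, since the adjusted p was 0.0944, 0.0541 and 0.0587 without the day 0, day 7 or day 14 array and 0.999 in the 4 non-expanded arrays alone. The gene lies on chromosome 14, from 8296270 to 8317607 on mm10. Ms4a8a, a membrane protein of the MS4A family, shared the course at 7.16, 6.51, 5.70 and 9.51.

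Structural genes of the growing hair were high at day 14 alone. All 9 inner root sheath genes tested were highest then, against 25.1% of all genes. The list mean was 4.91, 4.79, 9.14 and 4.96, beside 7.41 in telogen and 17.43 in anagen skin. Tchh, trichohyalin of the inner root sheath, was at 5.43, 4.97, 13.47 and 6.06, and its keratin Krt71 at 5.63, 4.61, 11.89 and 5.02. The keratin-associated protein Krtap22-2 was at 4.24, 3.86, 16.49 and 3.92, beside 15.66 in telogen and 19.88 in anagen. Day 14 thus lay near telogen skin for Krtap22-2, whereas on the other 3 days these genes were at or near background, below telogen skin. Keratin-associated proteins are near-identical copies in part, so single values are uncertain. The day 14 difference of Krtap22-2 was 12.49 ± 4.53 (SE, 1 array against 3; adjusted p = 0.738 in limma), and expanded day 7 skin, at 19.19, enters the spread. Without that array 13 genes passed at day 14, with an adjusted p of 0.0256 for Krtap22-2, and in the 4 non-expanded arrays alone 7 genes passed. Hair shaft keratins were lower, with a mean of 4.34, 4.27, 5.51 and 4.47, beside 5.10 in telogen and 14.56 in anagen skin. At day 14, 7 of 9 were highest, against 25.1% of all genes. Their median at day 14 was 4.96, under the background median of 5.46, so these ranks rest largely on background levels. They passed a filter on the mean of all arrays, which include anagen skin and expanded day 7 skin (9.53).

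The 150 genes highest in anagen over telogen skin had means of 6.05, 5.89, 7.18 and 5.81, beside 6.63 in telogen and 14.83 in anagen skin, and 98 of them were highest at day 14, against 25.1% of all genes. That list was chosen on those 2 arrays, as were the 150 genes highest in telogen over anagen, whose means were 12.06, 11.71, 12.53 and 12.38. Hair matrix factors did not share the day 14 peak, since 5 of 7 were highest at day 0, against 23.9% of all genes. The mean of 6 melanocyte genes was 7.08, 6.52, 7.32 and 6.68, beside 7.58 in telogen and 12.62 in anagen skin. Follicle stem cell genes were highest at day 14 in 12 of 16, against 25.1% of all genes. Lhx2, a stem cell transcription factor, was at 9.16, 8.38, 11.06 and 9.06 and Fgf18, a signal of resting follicles, at 9.46, 9.23, 11.51 and 10.56. Lgr5, of follicle stem cells, was at 8.68, 8.47, 9.44 and 7.84, and Lgr6, of the follicle isthmus and epidermis, at 6.09, 6.43, 7.37 and 6.06. Both were highest at day 14, and a line over the days was called for neither (adjusted p = 0.994 for each in limma).

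Signals that time the hair cycle moved less than the structural genes. Of the Wnt genes 9 of 20, of the bone morphogenetic protein genes 7 of 12 and of the Hedgehog genes 4 of 9 were highest at day 14, against 25.1% of all genes. Of these lists 1, 1 and 2 members were higher at day 14 at an unadjusted p under 0.05, against 3.26% of all genes. Rspo1, an amplifier of Wnt signals, was at 7.90, 7.05, 10.20 and 7.74, Bmp2 at 6.15, 6.03, 7.30 and 5.73 and the Hedgehog receptor Ptch1 at 7.91, 7.59, 9.37 and 7.82. Median ranges of these lists were 1.11, 0.93 and 0.92, beside 0.95 over all genes. Of the basal epidermis genes, 7 of 12 were highest at day 14, against 25.1% of all genes, with Krt15 at 14.91, 14.74, 16.17 and 14.47.

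Fat genes were also highest at day 14, and gland genes were higher at days 0 and 14. Of 17 adipocyte genes 10 were highest at day 14, 8 lowest at day 0 and 7 at day 7, against 25.1%, 27.9% and 24.3% of all genes. Adipoq, the adipocyte hormone adiponectin, was at 12.93, 10.41, 13.42 and 12.18, and Retn, the hormone resistin, at 13.55, 9.86, 14.48 and 11.81. Day 14 was higher for 6 of 17 at an unadjusted p under 0.05, against 3.26% of all genes. Of 14 sebaceous gland genes, 8 were highest at day 14, 4 at day 0, and 9 were lowest at day 7, against 25.1%, 23.9% and 24.3% of all genes. Their mean was 12.95, 11.87, 13.16 and 11.96. Day 14 was higher for 2 of them at an unadjusted p under 0.05. Elovl3, a fatty acid elongase, was highest at day 0, at 13.85, 10.05, 13.28 and 10.54. Major urinary proteins, carriers of small lipophilic molecules, shared the day 7 trough. Mup2 was at 15.83, 12.83, 17.73 and 16.30 and Mup19 at 16.93, 14.31, 18.60 and 17.45, and since the Mup genes are near-identical copies, single values are uncertain. Epgn, an epidermal growth factor receptor ligand, was low at day 7 alone, at 7.92, 4.77, 8.24 and 8.18. Ereg, another such ligand and a member of the wound epidermis list, was at 11.50, 8.42, 10.67 and 11.25, nearly as high at day 21 as at day 0.

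Immediate early genes alternated with the arrays. Fos and Egr1, transcription factors switched on within minutes of a stimulus, were at 11.54, 9.84, 13.24 and 9.62 and at 14.10, 12.05, 15.11 and 11.004, each higher at days 0 and 14. The mean of 18 such genes was 10.70, 9.67, 10.86 and 9.52, beside 8.47 in telogen and 9.06 in anagen skin. These genes also respond to handling of tissue, and the part of handling in them or in the alternation of the other lists was not tested. Heat shock genes were highest at day 0 in 6 of 13, against 23.9% of all genes, with a mean of 11.74, 11.34, 11.21 and 11.37. The mean of 15 clock genes was 10.15, 10.46, 10.29 and 10.50, with Per2, a clock repressor, at 7.82, 8.49, 7.33 and 9.65.

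Resolution was also read as distance from skin without surgery. A gene was counted as outside when it lay at least 1 log2 unit beyond both the telogen and the anagen array. On days 0, 7, 14 and 21, 857, 1252, 578 and 1030 genes lay above both, and 373, 470, 170 and 394 lay below both. The count thus did not decline from week to week: it was smallest at day 14 and larger at day 21 than at day 0. In expanded skin 1115, 906, 1028 and 754 genes lay above both arrays on days 0, 7, 14 and 21. Of the 857 genes above at day 0, 503 (58.7%) were also above at day 7, 352 (41.1%) at day 14 and 473 (55.2%) at day 21. Of the 1030 above at day 21, 473 (45.9%) had been above at day 0, 750 (72.8%) at day 7 and 316 (30.7%) at day 14. In all, 1954 genes lay above on at least 1 day and 238 on all 4. Below both, 924 genes lay on at least 1 day and 34 on all 4. These are counts over the same 2 unoperated arrays and carry no test.

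**Figure D5:**
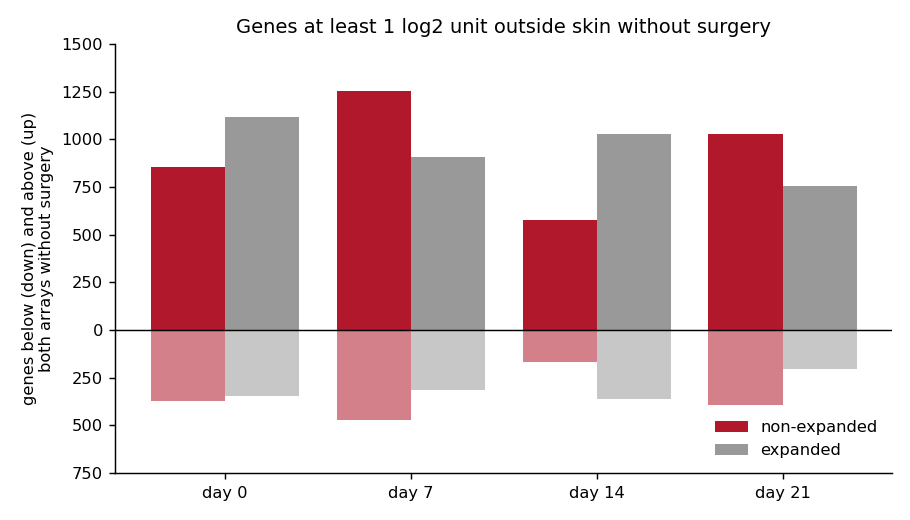
Number of genes at least 1 log2 unit above (up) or below (down, paler) both arrays without surgery, by day after full injection, for non-expanded (red) and expanded (grey) skin, 1 array a bar. Non-expanded skin has 578 genes above at day 14 and 1252 at day 7.

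Lists differed in how far they came back. Wound epidermis had a median of 3.37 above the unoperated mean at day 0 and of -0.67, -0.20 and -0.39 on days 7, 14 and 21. Neutrophil genes stood at 4.04, 3.82, 1.26 and 2.35 above it, and macrophage genes at 3.17, 4.43, 2.08 and 4.22. Fibrillar collagens were at 0.57, 2.41, 1.04 and 0.51. The median of the epidermal wound genes was thus above the unoperated mean at day 0 alone, and that of the collagens was highest at day 7. For the wound genes telogen and anagen differed, with median levels of 5.54 and 8.31. On days 7, 14 and 21 their median level was 6.57, 6.78 and 5.99, above telogen and below anagen skin. Macrophage and complement genes (2.42, 4.20, 1.94 and 4.15) lay farther above at day 21 than at day 0. Over all genes tested, 49.1% were nearer to the unoperated mean at day 21 than at day 0.

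The course in non-expanded skin was not distinguished from that in expanded skin for any gene by the difference of their lines. Limma called 0 of 13653 genes (0%), with a lowest adjusted p of 0.999, and 166 (1.22%) had an unadjusted p under 0.05. The 3 lowest unadjusted p-values belonged to troponin genes of slow muscle, Tnnc1, Tnni1 and Tnnt1, of which Tnnc1 is given here, chosen after its values were seen. Tnnc1, the calcium-binding subunit, was at 8.34, 6.89, 6.29 and 6.86 in non-expanded skin and at 7.58, 9.67, 10.44 and 12.55 in expanded skin. The line of non-expanded minus expanded skin was -6.22 ± 0.97 over 21 days (SE, 4 arrays in each arm; adjusted p = 0.999 in limma). The levels of Tnnc1 in the 2 arms were close at day 0 and apart from day 7 on.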

How the data were processed

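Total RNA of whole back skin was extracted with RNeasy columns and biotin-labelled with WT PLUS reagents of Affymetrix, per the labels' protocols. The authors deposited 1 processed table of 28846 probe sets on 10 arrays, read here as log2 signals. How they were background-corrected, normalized and logged is not given in the sources used here, and base 2 was inferred from their range, 1.88 to 19.88. The build mm10 is credited to the submitters' processing notes.

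Of the probe sets, 19572 had 1 gene symbol, 0 several and 9274 none, and all 19572 matched RefSeq by gene identifier. For 55 genes with several probe sets the one with the highest mean was used. Of 19505 genes, 5852 with a mean level under the 30th percentile (4.86) were left out, and of the 13653 tested 1486 had a mean under the background median. Values entered as deposited, with centred and quantile-normalized values as alternatives. The number of arrays limits the precision.

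Tests were two-sided, from limma 3.58.1 under R 4.3.3 (functions lmFit and eBayes), with Benjamini-Hochberg adjustment over all genes tested at a threshold of 0.05. The straight lines left 4 residual degrees of freedom and the day tests 5. The arrays of an arm are different days and not plain replicates, and p-values cover no other spread than that between them. The fits were also run on simulated data in which every gene had the same spread, unlike the real genes. There the line recovered 4%, 50% and 100% of changes of 1, 2 and 4 log2 units over 21 days. The difference between lines recovered 0%, 12% and 98% of them. Finding 0 genes with either thus does not show that smaller changes were absent. The members and all 51 lists (733 genes, 676 on the array, 619 tested) were chosen with earlier results of these data known, so no pattern in them is independent support.

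Genes are named by a rule. It takes the 12 largest rises and falls of the line that pass, filled up from an unadjusted p under 0.01; for each day the 8 largest gaps above and below the other 3 days; up to 6 genes of the largest range highest or lowest at day 7 or 14; and up to 4 members of the largest range per list. Lgr6, Lgr5, Krt14, Krt10, Col1a1, Col3a1, Acta1 and Mki67 are always in. Predicted genes are not named. Not every gene the rule takes is printed, and where several call for a value those with known roles were preferred. Alternatives were the filter, quantile normalization, array centring, the eBayes trend, the mean of probe sets, the 4 non-expanded arrays alone, arrays left out, a comparison of days 14 and 21 with days 0 and 7, day as a block, and a threshold of 1.5 log2 units.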

Additional observations from a re-analysis of the deposited data

Results flagged for a closer look

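Among 4 arrays, 1 array stood apart from the other 3 in 5 of 53 list means examined with Dixon's limit for the gap to the nearest array. Chance gives about 1 in 20 such gaps in independent values, but the lists share arrays and some genes and were chosen with earlier results of these data known, so the 2 shares cannot be compared. Day 0 was the array apart for wound epidermis, at 10.91 against 7.31 to 7.45 on the other days, and for embryonic and slow muscle genes, at 9.834 against 7.903 to 8.206. The gap of the muscle list rests on Ankrd1: without this gene, left out after the values were seen, day 0 was at 9.261 against 7.938 to 8.329, a gap of 0.704 of the range, and no longer past the limit. Day 14 was apart for the interferon response, at 7.318 against 8.568 to 8.744, for the inner root sheath, at 9.145 against 4.788 to 4.965, and for hair shaft keratins, at 5.507 against 4.271 to 4.468. The hair shaft means all lay near or under the background median of 5.46. Of single genes, Marco at 10.999 and Tnn at 9.872 on day 7 and Fam107a at 10.455 on day 21 also passed the limit. They were named because that day differed from the others, so their gaps restate that choice and add nothing to it.

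For 8 of 52 lists, days 7, 14 and 21 all lay on 1 side of day 0 in non-expanded skin and all on the other side in expanded skin. The values are the mean change from day 0 in non-expanded skin, then in expanded skin, and their difference, which was not tested. Matrix and vessel lists were higher after day 0 in non-expanded and lower in expanded skin. Fibrillar collagens had 0.954 and -0.449, a difference of 1.403. Collagen-modifying enzymes had 0.759 and -0.349, a difference of 1.108. Elastic fibre genes had 0.616 and -0.449, a difference of 1.065, and endothelial genes 0.758 and -0.499, a difference of 1.257. Insulin-like growth factor genes had 0.796 and -0.295, a difference of 1.091, and genes of hypoxia and glycolysis 0.565 and -0.175, a difference of 0.739. Embryonic and slow muscle genes ran the other way, with -1.760 and 1.292, a difference of -3.051, and without Ankrd1 -1.148 and 1.499, a difference of -2.646. Hair matrix factors did so too, with -0.525 and 0.924, a difference of -1.449. All 8 rest on the single day 0 array of each arm.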

How the results depend on the processing

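Quantile normalization, array centring, the eBayes trend, the mean of probe sets and no filter on low levels kept the 4 genes called. Fitted on the 4 non-expanded arrays alone, 12 genes passed at day 0, 0 at day 7, 7 at day 14 and 0 at day 21, where Marco and Tnn had an adjusted p of 0.19 and Fam107a of 0.999. Without the expanded day 7 array 13 passed at day 14, hair genes among them. Leaving out each non-expanded array in turn gave 0 to 2 genes at day 0, 1 to 3 at day 7, 0 at day 14 and 0 to 0 at day 21. The line and the difference between lines stayed at 0 genes, also for days 14 and 21 against days 0 and 7 and with day as a replicate block. The numbers pair the arms by day in the labels, but deviations of same-day arrays correlated at -0.133, -0.171, -0.104 and 0.358, so the block result is given as a count of calls only (0 genes). Of 928 values of named genes, 903 kept their direction and side of the threshold, 17 came to pass and 8 no longer passed. The 8 all belong to the 4 calls, since only a value that passes can cease to pass. No other value passed in the main fit, so most of the 903 only record that a gene still did not pass. All 400 values of 50 lists under array scaling moved by less than the spread over days. Counts at an unadjusted p under 0.05 ranged from 667 to 2222 (day 0), 743 to 2427 (day 7), 555 to 2053 (day 14), 400 to 1837 (day 21), 354 to 1059 (line) and 146 to 455 (difference between lines).

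Medians of the genes tested ran between 8.06 (telogen) and 8.39 (expanded day 14). Centring on them put 711 genes at day 7 and 269 at day 14 below both arrays without surgery, against 470 and 170 as deposited. At 1.5 log2 units 2897 genes were in range, 2128 alternated and 145 kept 1 direction; 478, 710, 224 and 606 lay above and 114, 185, 28 and 129 below skin without surgery on days 0, 7, 14 and 21. The alternating share stayed between 65.7% and 73.5%. Where a call changed, the cause was not tested. Signals at the background level limit differences downward, and with 1 array a day the mouse, the tissue piece and the day cannot be told apart.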
